A study of Mus musculus with 32 samples.

Results

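The mRNA of endothelial and Ito cells from livers that carried colon carcinoma was compared on Agilent two-colour mouse arrays, with 4 TME endothelial and 4 TME Ito samples taken by their titles out of 32 samples in all (TME, tumor microenvironment). The mice were Balb/c, and C26 colon carcinoma cells, which are syngeneic with them, had been injected into the spleen. Control mice had received PBS in their place, and 4 control endothelial and 4 control Ito samples served as comparison. The cells were freed from perfused livers with collagenase, parted on a Percoll gradient and kept as primary cultures, with Kupffer cells taken out by their adherence. All TME samples carried Cy5 and all control samples Cy3, and the control and TME samples of the same cell type and number shared an array. The 8 endothelial and 8 Ito samples lay on the same slide, the endothelial arrays in row 1 and the Ito arrays in row 2, so cell type and array row cannot be told apart. The study describes the 4 samples of a group as biological replicates. The labels do not say whether they came from separate mice, and the p-values measure only the spread between these samples, which may be technical. The question of the comparison is how both cell types of the sinusoid differ in the metastatic liver. A level below is the log2 of the normalized signal of a probe, a difference is TME endothelial minus TME Ito on that scale, and "higher" is written where the adjusted p of limma was under 0.05.

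Liver sinusoidal endothelial cells line the sinusoids without a basement membrane, carry scavenger receptors and take up waste from the blood. Ito cells, also called stellate cells, lie beneath them in the space of Disse, store vitamin A as retinyl esters in lipid droplets and, once activated, contract and lay down collagen. Endothelin-1, the product of *Edn1*, is made by endothelial cells and contracts stellate cells through its receptors *Ednra* and *Ednrb*. Apelin, the product of *Apln*, is a peptide of endothelial tip cells. Albumin, the product of *Alb*, is made by hepatocytes, the parenchymal cells from which both other types have to be parted.

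Several libraries stood apart from their groups. Distance between channels was taken as the robust SD of their log2 difference over the 20688 probes that all 16 channels of the slide measured well above background. TME endothelial replicates 1, 3 and 4 lay 0.155 to 0.181 from each other, and replicate 2 lay 0.356 to 0.380 from them. TME Ito replicates 1 and 3 lay 0.227 apart, and replicate 2 lay 0.972 to 1.13 from the other TME Ito libraries. The library labelled TME Ito replicate 4 lay 0.208 to 0.248 from control Ito replicates 1 to 3 but 0.562 to 0.593 from TME Ito replicates 1 and 3, and the library labelled control Ito replicate 4 lay 0.186 from TME Ito replicate 1. On Ito array 4 the TME minus control differences ran opposite to those of arrays 1 and 3 (across probes, r = -0.87 and -0.81), whereas the endothelial arrays gave r of 0.46 to 0.94 among themselves. For this reason a count of list members is also given without TME Ito replicate 2 or 4 where leaving it out moved the count by at least 2 genes and over 1.5 times. Control endothelial replicates 1 and 4, and likewise 2 and 3, differed by less than the noise between spots of the same probe (0.0948 against 0.117, and 0.0997 against 0.107). Each such pair was counted as 1 sample in an alternative of the fit, which shares its spread over all 4 groups.

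**Figure D1:**
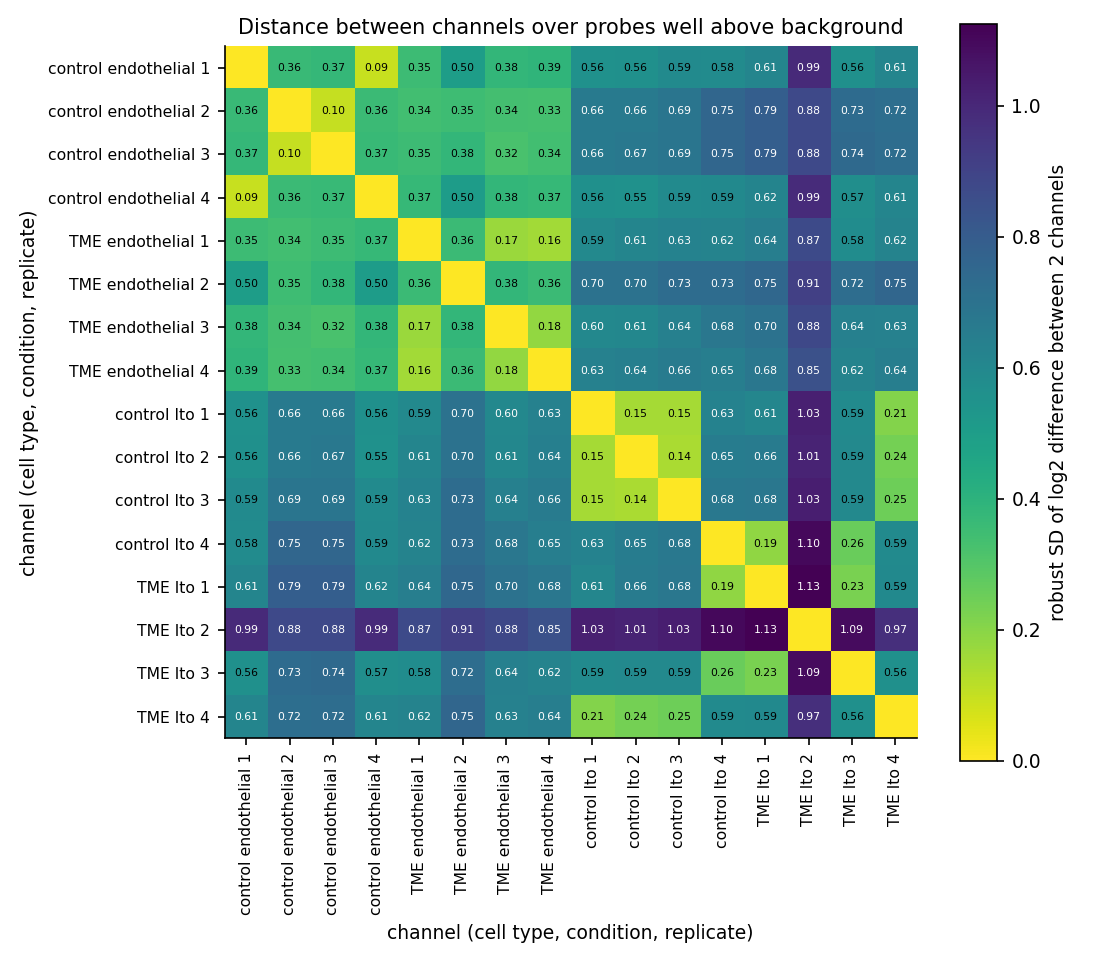
Distance between each pair of the 16 endothelial and Ito channels, as the robust SD of their log2 difference (colour and printed value; larger is farther apart). TME Ito replicate 2 is far from the other Ito channels, TME Ito replicate 4 sits with control Ito replicates 1 to 3, and control Ito replicate 4 sits with TME Ito replicates 1 and 3.

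The labels were then set against marker genes. The mean level of 33 endothelial markers was 11.79, 11.52, 11.93 and 11.83 in TME endothelial replicates 1 to 4 and 10.42, 9.45, 10.57 and 10.96 in TME Ito replicates 1 to 4, with no overlap. The mean level of 30 stellate markers was 9.51, 9.31, 9.55 and 9.53 in endothelial and 8.92, 9.95, 9.08 and 8.83 in Ito replicates, so that 3 of the 4 Ito libraries lay below all endothelial ones. *Lrat*, the enzyme that makes retinyl esters, was not well above background on any of the 8 arrays. *Des*, the stellate filament desmin, was at 9.89 in Ito replicate 2, between 5.43 and 6.0 in the other Ito replicates and at 6.75 to 7.39 in the endothelial ones. Among TME libraries, only Ito replicate 2 thus lay above the endothelial ones in stellate markers. Its level was within the range of the control endothelial libraries (9.89 to 10.23), while control Ito libraries were at 8.82 to 9.06. In control cells, 10 stellate markers were higher in endothelial and 0 in Ito cells. The stellate markers therefore did not bear out the Ito label in either condition, apart from TME Ito replicate 2. The mean level of 30 hepatocyte markers, in contrast, was 11.97, 10.85, 11.88 and 11.08 in Ito replicates and 8.07 to 8.35 in endothelial ones, and that of 22 macrophage markers 13.77, 11.42, 13.73 and 12.80 in Ito and 11.49 to 12.08 in endothelial replicates. In bulk samples such as these, fewer cells of a type and less RNA per cell cannot be told apart.

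**Figure D2:**
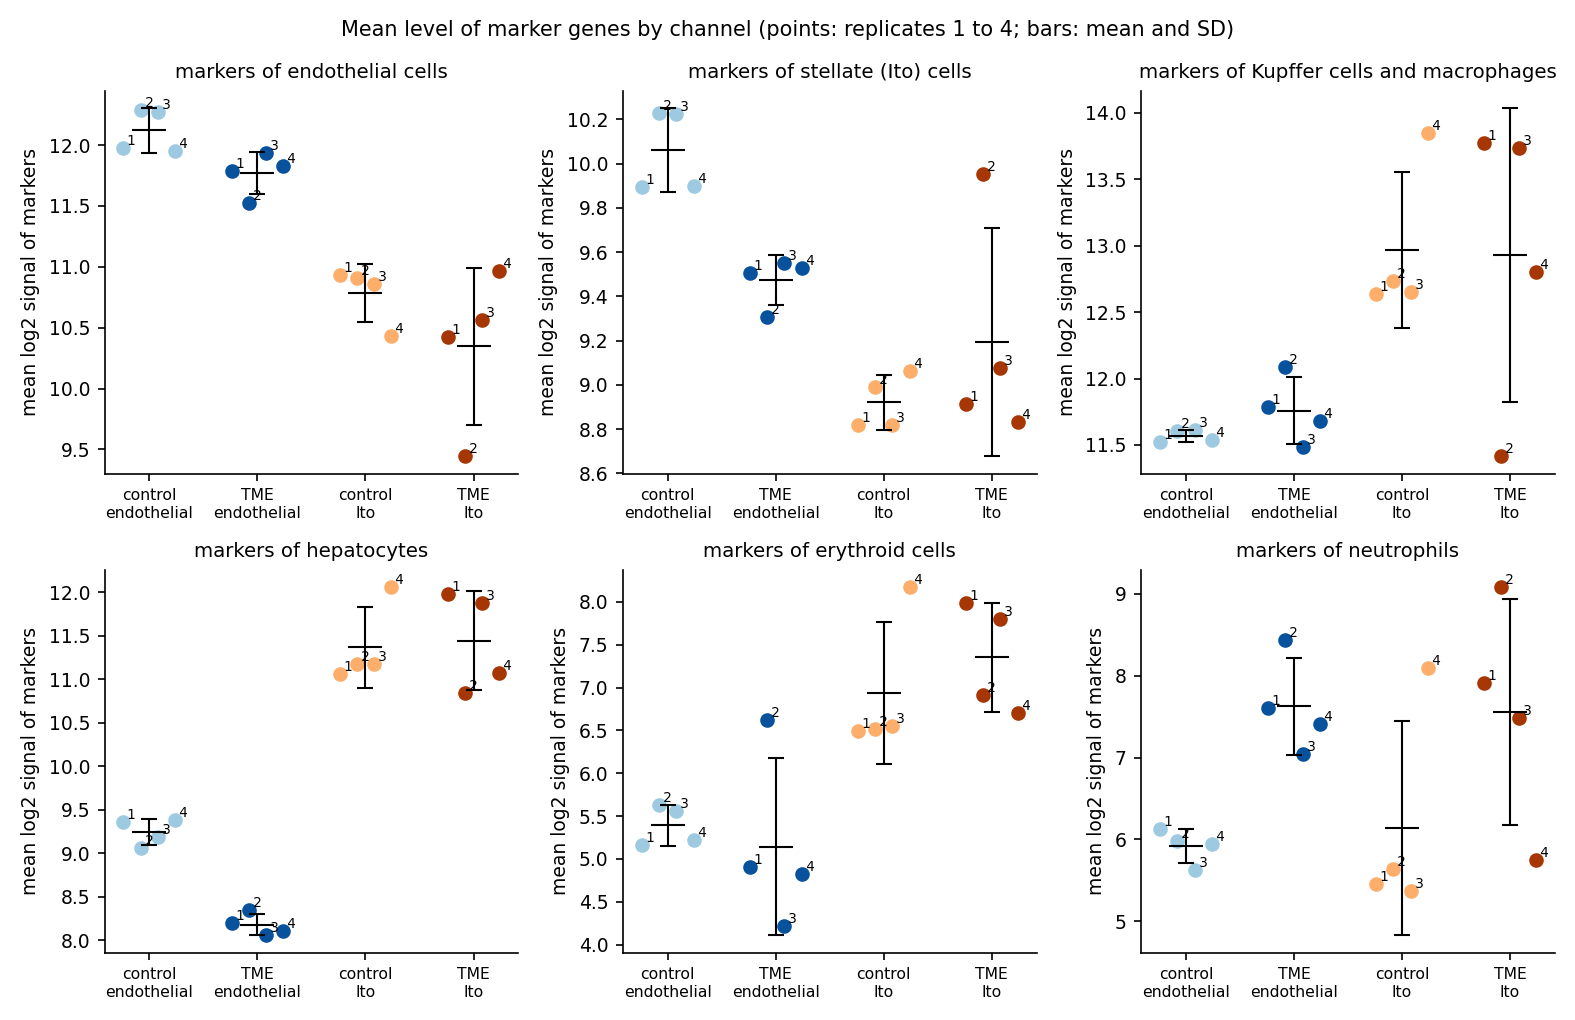
Mean log2 signal of the markers of 6 cell types in each channel (points, replicates 1 to 4; black bars, mean and SD of 4 samples), in control and TME endothelial and Ito cells. Endothelial markers are highest in the endothelial channels, hepatocyte markers in the Ito channels, and stellate markers are high in TME Ito replicate 2 alone among the TME Ito channels.

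Of 55681 probes, 3016 (5.42%) were higher in TME endothelial and 2333 (4.19%) in TME Ito cells. With 1 probe for each of 19114 named genes, 1423 genes (7.44%) were higher in endothelial and 1140 (5.96%) in Ito cells, and the median difference over all genes was 0.01. Leaving out TME Ito replicate 2 gave shares of 14.9% and 10.6% of genes, without TME Ito replicate 4 they were 6.94% and 5.68%, and with only the 8 TME samples in the fit they were 2.94% and 2.54%. The groups did not overlap in 9.27% of genes with the endothelial samples above and in 9.2% with the Ito samples above. With the 2 pairs of control endothelial channels each counted as 1 sample, 2361 and 1886 probes were called. Once all channels that lay close together were averaged as well (TME endothelial 1, 3 and 4, TME Ito 1 and 3, control Ito 1 to 3), 43 (0.0772%) and 80 (0.144%) probes were, which leaves 2 channels for TME endothelial and 3 for TME Ito cells. The group means of 90.4% of the 20891 probes that every TME channel measured well above background lay within 2-fold of each other.

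*Apln* and *Edn1* had the largest differences among called genes whose groups did not overlap and whose signal was well above background on all endothelial arrays. The order rests on low Ito signals, and after normexp and loess *Ctgf* (4.54) came between *Edn1* and *Apln*. The level of *Edn1* was 11.17, 13.29, 11.42 and 11.31 in TME endothelial replicates 1 to 4 and 4.66, 7.21, 4.17 and 7.24 in TME Ito replicates 1 to 4. All endothelial samples lay above all Ito samples, and the signal of the probe, which is printed on 10 spots, was well above background on 2 of the 4 Ito arrays. The difference of 5.98 ± 0.80 (SE, n = 4 and 4; 63.1-fold) had an adjusted p of 0.000397 in limma, and the two-sided exact permutation test gave p = 0.0286, the smallest that 4 against 4 samples allow. That exact p follows from groups that lie apart. It adds no support, since the study had already reported *Edn1* and *Apln* as lower in TME Ito than in TME endothelial cells from these data. The difference of *Edn1* was 6.44 without TME Ito replicate 2 and 6.45 without replicate 4, but 4.69 after normexp and loess. *Apln* was at 9.79, 11.67, 9.94 and 9.80 in endothelial and at 2.35, 4.69, 3.74 and 5.24 in Ito replicates, where 1 of 4 arrays was well above background. Endothelial replicate 2 was the highest for both genes. The difference of 6.30 ± 0.87 (78.6-fold; adjusted p = 0.000493, limma; exact permutation p = 0.0286) became 6.53 without TME Ito replicate 2, 6.71 without replicate 4 and 4.03 after normexp and loess. The probes lie at chr13:42403101-42403160 (*Edn1*) and chrX:45378593-45378652 (*Apln*) of mm9.

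The 250 bases before the start of both genes in RefSeq (GRCm38.p6) are printed here since the 2 genes lead the comparison, at chr13:42301226-42301475 on the plus strand for *Edn1* and chrX:48034854-48035103 on the minus strand for *Apln*. They are in lower case throughout, since none of the 3 motifs searched on both strands (GTTAAT of the liver factor HNF1, ACGTG of the hypoxia response and TATAAA, the TATA box) is in either window.
Edn1: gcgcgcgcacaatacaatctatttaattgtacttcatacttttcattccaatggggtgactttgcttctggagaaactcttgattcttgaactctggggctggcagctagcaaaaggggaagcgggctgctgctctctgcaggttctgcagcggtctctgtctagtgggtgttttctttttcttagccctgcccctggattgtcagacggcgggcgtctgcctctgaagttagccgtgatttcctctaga
Apln: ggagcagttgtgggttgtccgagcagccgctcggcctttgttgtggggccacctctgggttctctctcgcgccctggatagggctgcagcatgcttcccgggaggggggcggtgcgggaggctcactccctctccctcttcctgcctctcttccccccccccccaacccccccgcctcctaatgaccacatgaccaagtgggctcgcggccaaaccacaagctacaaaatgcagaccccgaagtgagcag

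Of the 9 measured genes of endothelin and apelin signaling, 3 were higher in endothelial and 0 in Ito cells, and their median difference was 0.35. It was 0.57 without TME Ito replicate 2 and -0.03 with scaling to the 75th percentile, which moved the median of all genes to -0.12. The third was *Ece1*, the protease that turns big endothelin into endothelin-1, with 10.30, 10.11, 10.47 and 10.42 in endothelial and 8.61, 9.02, 9.09 and 9.03 in Ito replicates. The groups lay apart, and the difference was 1.39 ± 0.16 (adjusted p = 0.000133, limma). The receptors were not called. *Ednra* had a mean of 11.38 in endothelial and 12.05 in Ito cells (adjusted p = 0.129, limma). For *Ednrb* the means were 11.17 and 12.82 (adjusted p = 0.127), and without TME Ito replicate 2 the difference was -2.50 (adjusted p = 0.000113). The apelin receptor *Aplnr* was well above background on 1 endothelial array and no Ito array.

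**Figure D3:**
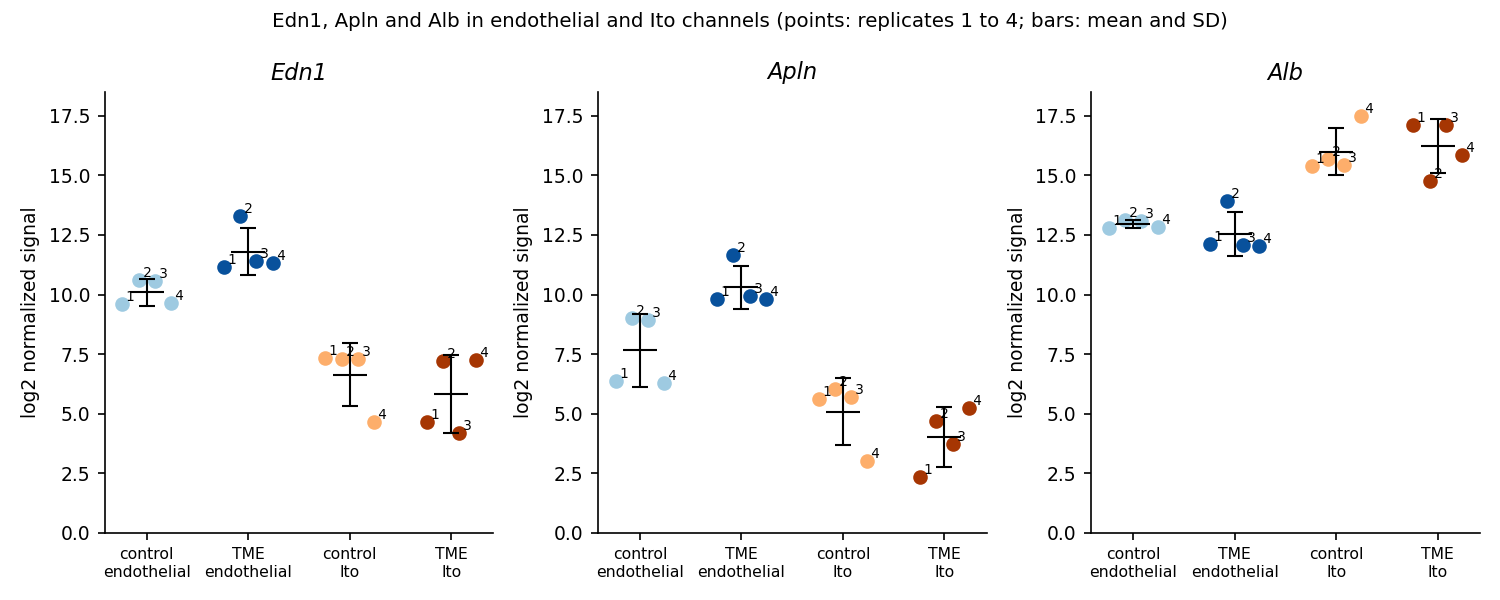
Log2 normalized signal of *Edn1*, *Apln* and *Alb* in each channel of control and TME endothelial and Ito cells (points, replicates 1 to 4; black bars, mean and SD of 4 samples). The TME endothelial points of *Edn1* and *Apln* lie above all TME Ito points and those of *Alb* below them, with TME endothelial replicate 2 highest within its group for all 3 genes.

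Endothelial markers were higher in the endothelial cells in 14 of 33 cases and in Ito cells in 1, with a median difference of 1.42. Without TME Ito replicate 2 the counts were 16 and 2 and the median 0.76, and without replicate 4 the counts were 17 and 0. *Sox18*, an endothelial transcription factor, was at 6.16, 7.04, 6.59 and 6.25 in endothelial and at 1.97, 2.02, 2.02 and 3.49 in Ito replicates. No Ito array measured it well above background, and the signal was at least 1.90-fold higher in endothelial cells (adjusted p = 1.75e-05, limma). Such bounds set the brighter mean against the background limit of the dimmer arrays, on loess and Aquantile normalized values, and are open to dye bias. *Robo4*, a guidance receptor of endothelial cells, was at 13.39, 13.90, 13.64 and 13.44 in endothelial and at 9.71, 9.56, 9.91 and 11.09 in Ito replicates. The groups did not overlap, although Ito replicate 4 stood above the other Ito samples, and the difference was 3.52 ± 0.40 (adjusted p = 9.62e-05, limma). *Oit3* and *Gpr182*, both typical of sinusoidal endothelium, were 13.4-fold and 12-fold higher, and the sialomucin *Emcn* was 14.1-fold higher. The pan-endothelial adhesion genes *Pecam1* (difference 1.38 ± 0.43, adjusted p = 0.0623) and *Cdh5* (0.89 ± 0.35, adjusted p = 0.137) missed the threshold in limma, and passed it without TME Ito replicate 4 (adjusted p = 0.0442 and 0.0103). Their levels in Ito replicate 4 were 11.06 and 13.85, the highest of the Ito samples. The scavenger receptor *Stab2* (0.81 ± 0.27) and the hyaluronan receptor *Lyve1* (1.21 ± 0.70) were not called. *Mcam*, the adhesion molecule CD146 by which the study stained endothelial cells, was the 1 marker higher in Ito cells (-1.16 ± 0.29, adjusted p = 0.0238, limma). Without TME Ito replicate 4 it was no longer called (adjusted p = 0.0592).

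Besides *Apln*, *Edn1*, *Sox18* and *Emcn*, the 12 genes with the largest endothelial differences were *Sema3g*, *Mgarp*, *Ctgf*, *Id4*, *Endou*, *Sdpr*, *Tspan18* and *Shisa9*. *Sema3g*, a secreted semaphorin, was at 8.04, 5.75, 7.97 and 7.80 in endothelial and at 2.18, 3.91, 2.10 and 2.21 in Ito replicates. *Mgarp*, a mitochondrial protein, was at 7.42 to 7.96 in endothelial and 2.60 to 3.35 in Ito cells. Neither was well above background on any Ito array, and they were at least 3.23-fold and at least 3.37-fold higher in endothelial cells. *Id4*, which binds and holds back bHLH transcription factors, was at 9.61, 9.27, 9.59 and 9.56 in endothelial and at 4.94, 4.61, 5.75 and 5.79 in Ito replicates. It had the smallest adjusted p of the 12 (difference 4.24 ± 0.26, adjusted p = 4.81e-07, limma). *Ctgf*, a matricellular protein induced by TGF-beta, was at 14.44, 16.36, 14.66 and 14.45 in endothelial but at 8.19, 14.20, 8.32 and 11.01 in Ito replicates. Its Ito samples spread widely, with replicate 2 near the endothelial level, and its call (4.55 ± 1.14, adjusted p = 0.0221) was lost when only the 8 TME samples were fitted (adjusted p = 0.121). All 12 genes were called without TME Ito replicate 2, without replicate 4 and without both, 11 with only TME samples fitted, and 2 (*Mgarp* and *Id4*) with all near-identical channels averaged. Of the 12 genes highest in Ito cells, all were called without these replicates, 7 with only TME samples fitted and 0 in limma with the channels averaged (11 at an unadjusted p under 0.05).

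**Figure D4:**
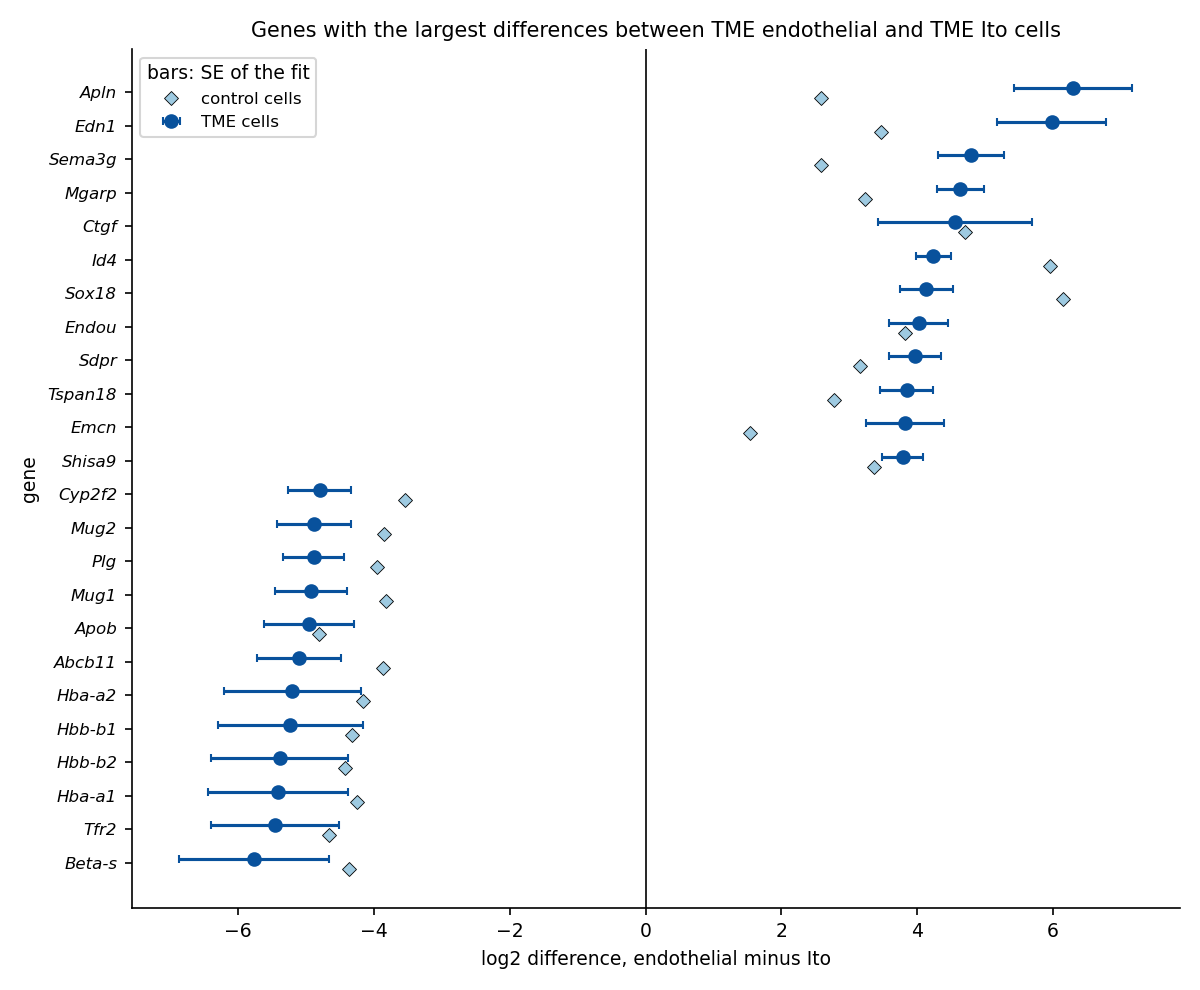
Log2 difference, endothelial minus Ito, of the 12 genes highest in TME endothelial and the 12 highest in TME Ito cells (dark circles, TME cells with SE of the fit; light diamonds, the same difference in control cells). For all 24 genes the diamond lies on the same side of 0 as the circle.

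Signaling lists of the vessel wall leaned to the endothelial side. Of 25 genes of TGF-beta and BMP signaling, 10 were higher in endothelial and 0 in Ito cells (median difference 0.72), against 12 and 2 without TME Ito replicate 2 and 3 and 0 when only TME samples were fitted. *Smad6*, the inhibitory Smad of BMP signaling, was at 9.59, 9.58, 9.77 and 9.64 in endothelial and at 6.67, 7.15, 6.76 and 7.38 in Ito replicates. The endothelial samples lay close together and above all Ito ones, by 2.65 ± 0.18 (adjusted p = 9.26e-07, limma). The ligand *Bmp4* was 8.73-fold higher (3.13 ± 0.35) and *Tgfb2* 3.75-fold higher, the latter not called without TME Ito replicate 4 (adjusted p = 0.0781). Of 15 VEGF and angiopoietin ligands and receptors, 6 were higher in endothelial and 0 in Ito cells (median 0.85), and 2 of them when only TME samples were fitted. They included the VEGF-C receptor *Flt4* (2.36 ± 0.22), the orphan receptor *Tie1* (1.63 ± 0.25), *Angpt2* (1.45 ± 0.37) and *Flt1* (1.39 ± 0.34). *Kdr*, the main receptor of VEGF-A, had means of 11.50 in endothelial and 12.17 in Ito cells and was not called (adjusted p = 0.320, limma). Of 14 Notch genes 3 were higher in endothelial and 0 in Ito cells (median 0.21, or 0.06 without TME Ito replicate 4), namely the receptor *Notch4* (2.17 ± 0.24), its ligand *Dll4* and the target *Nrarp*. *Nrarp* was at 5.65 to 6.05 in endothelial and 2.27 to 2.71 in Ito replicates, with no Ito array above background, and was at least 1.57-fold higher, while *Dll4* was at least 1.23-fold higher. Among 25 semaphorins, plexins and other guidance genes, 5 were higher in endothelial and 1 in Ito cells, and 10 and 1 without TME Ito replicate 2. *Sema3f* (2.61 ± 0.26) and *Sema6a* (2.16 ± 0.23) stood with *Sema3g* and *Robo4* on the endothelial side, and the leukocyte semaphorin *Sema4d* (-1.52 ± 0.17) on that of the Ito cells. In control cells the endothelial and Ito counts were 13 and 1 for TGF-beta and BMP and 10 and 1 for guidance genes. They were 4 and 0 for VEGF and angiopoietin and 4 and 3 for Notch genes. No member of these lists had a called interaction of cell type and TME, so the lean was not particular to TME cells.

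Matrix genes were also called mostly on the endothelial side in the main fit. Collagen deposition is the classical role of the stellate cell, whose markers most of these Ito libraries did not show. Of all genes, 7.44% and 5.96% were called on the endothelial and Ito sides. The shares were 14.9% and 10.6% without TME Ito replicate 2, and 2.94% and 2.54% with only TME samples fitted. In that last fit the counts do not set these lists apart from all genes. Of 27 matricellular proteins and proteoglycans, 6 were higher in endothelial and 0 in Ito cells (median 0.76), without TME Ito replicate 2 they were 11 and 1, and when only TME samples were fitted 1 and 0. The median was 0.28 without TME Ito replicate 4. *Thbs1*, thrombospondin-1, was at 13.80, 14.25, 13.73 and 13.93 in endothelial and 10.41, 12.74, 10.80 and 11.60 in Ito replicates. The nearest Ito sample was replicate 2, and the difference was 2.54 ± 0.41 (adjusted p = 0.00173, limma). Of 18 collagens, 3 were higher in endothelial and 1 in Ito cells (6 and 1 without TME Ito replicate 2, 1 and 1 with only TME samples). *Col4a1* and *Col4a2*, the chains of basement membrane collagen, were 2.84-fold and 2.13-fold higher in endothelial cells and *Col14a1* was 1.60-fold higher in Ito cells. *Col8a1* was called near background (adjusted p = 0.0470) and not without TME Ito replicate 2 or 4. *Col1a1*, the main fibrillar collagen of activated stellate cells, was at 7.32, 9.45, 7.69 and 7.60 in endothelial and at 6.26, 10.17, 7.03 and 5.14 in Ito replicates. Replicate 2 was the highest sample of either group, and the difference was not called (0.86 ± 0.87, adjusted p = 0.627, limma). Among 20 metalloproteinases and inhibitors, 3 were higher in endothelial and 1 in Ito cells (6 and 3 without TME Ito replicate 2, 1 and 0 with only TME samples), with the stromelysin *Mmp10* 9.20-fold higher in endothelial, the inhibitor *Timp3* 2.81-fold higher in endothelial and *Mmp19* 4.28-fold higher in Ito cells.

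The stellate markers themselves gave 0 calls in either direction among 30 genes (median 0.33), with 3 in each direction at an unadjusted p under 0.05 in limma. Without TME Ito replicate 2 there were 10 higher in endothelial and 4 in Ito cells (median 0.81), and without replicate 4 there were 0 and 0. *Acta2*, smooth muscle actin and the usual sign of an activated stellate cell, was at 7.72, 9.72, 7.94 and 7.81 in endothelial and at 6.53, 12.49, 6.46 and 5.75 in Ito replicates. Ito replicate 2 was the highest and the other Ito samples were below all endothelial ones. *Pdgfrb*, the PDGF receptor of stellate cells and pericytes, followed the same order, with 7.75, 10.97, 8.27 and 8.68 in Ito and 9.24 to 9.56 in endothelial replicates. Of 17 contractile and cytoskeletal genes, 1 was higher in endothelial cells (*Cnn2*, 3.92-fold), which is no more than the share of all genes (7.44%). Without TME Ito replicate 2 there were 6. Leaving out that sample also raised the shares of all genes, from 7.44% and 5.96% to 14.9% and 10.6%. Part of the rise in the lists of this paragraph was therefore common to all genes. Of 18 genes of retinoid storage and metabolism, 1 was higher in endothelial and 3 in Ito cells, and without TME Ito replicate 2 there were 4 on each side. The retinoic acid receptor *Rarb* was 4.27-fold higher in endothelial cells. *Rbp4*, the plasma carrier of retinol, was at 9.21 to 11.54 in endothelial and 12.48 to 13.48 in Ito cells (-2.92 ± 0.42, adjusted p = 0.000669, limma), and *Plin2*, a coat protein of lipid droplets, was 2.67-fold higher in Ito cells. *Rarres1* was at least 1.44-fold higher in Ito cells. *Rbp4* and *Plin2* are also expressed by hepatocytes, whose markers moved with these samples, and their part in these 2 differences was not tested.

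Genes of the hypoxia response were called mostly on the endothelial side, whereas the list of glycolysis and gluconeogenesis was divided. Of 16 hypoxia genes, 9 were higher in endothelial and 1 in Ito cells, with a median difference of 1.32, and without TME Ito replicate 4 the counts were 11 and 1. When only TME samples were fitted they were 4 and 1. *Bnip3*, a mitophagy receptor induced by low oxygen, was at 14.90, 14.09, 14.76 and 14.85 in endothelial and at 12.43, 12.50 and 13.17 in Ito replicates 1, 3 and 4, with Ito replicate 2 lowest at 11. The groups did not overlap, and the difference was 2.38 ± 0.37 (adjusted p = 0.00132, limma). *Pdk1*, which keeps pyruvate out of the mitochondria, was 7.89-fold higher and *Higd1a* 2.46-fold higher, the latter with an adjusted p of 1.02e-05. The oxygen sensors *Egln3* (1.97 ± 0.56) and *Egln1* (at least 1.32-fold) and the prolyl hydroxylase *P4ha2* (1.64 ± 0.25) were higher too, as was the regulator *Hif1a* itself (1.15 ± 0.26, adjusted p = 0.0139, limma). *Vegfa* differed by 0.19 and was not called (adjusted p = 0.479). The gene higher in Ito cells was *Hmox1*, the heme oxygenase, at 14.29 to 14.96 in endothelial and 16.37 to 17.19 in Ito cells (-2.26 ± 0.19, adjusted p = 8.87e-06). Of 22 genes of glycolysis and gluconeogenesis, 8 were higher in endothelial and 6 in Ito cells. The counts were 13 and 6 without TME Ito replicate 2, 3 and 3 with only TME samples fitted, and 4 and 6 with scaling to the 75th percentile. Among the 8, *Pfkl* was 4.82-fold, *Tpi1* 2.58-fold, the transporter *Slc2a1* 2.48-fold and *Pgam1* 2.07-fold higher. Among the 6 were *Slc2a2* (at least 3.02-fold), the glucose transporter of hepatocytes, and *Pck1*, *Fbp1* (9.90-fold) and *G6pc*, enzymes of glucose release.

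ACGTG, the core of the hypoxia response element, was searched on both strands in the 250 bases before RefSeq starts, taking the start listed first for each gene. It was present in 9 of the 13 hypoxia genes with an entry (69.2%), against 16.6% of all 27025 genes and 0 of 16 endothelial markers. This is a description of the windows, not of bound sites, and such genes are known in part through this element. For *Bnip3* the window (chr7:138909507-138909756, minus strand, GRCm38.p6) holds ACGTG on both strands, overlapping, at bases 108 to 103 before the start, which are in capitals.
Bnip3: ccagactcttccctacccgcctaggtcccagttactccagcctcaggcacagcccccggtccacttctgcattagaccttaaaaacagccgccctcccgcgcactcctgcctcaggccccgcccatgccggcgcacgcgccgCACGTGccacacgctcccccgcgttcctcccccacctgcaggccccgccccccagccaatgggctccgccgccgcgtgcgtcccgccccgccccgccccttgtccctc

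On the Ito side the calls were mostly of hepatocyte genes. *Alb* was at 12.13, 13.91, 12.06 and 12.05 in TME endothelial and at 17.12, 14.77, 17.13 and 15.85 in TME Ito replicates. The groups did not overlap, but endothelial replicate 2 and Ito replicate 2 came close to each other. The difference was -3.68 ± 0.60 (12.8-fold higher in Ito cells; adjusted p = 0.00172, limma; exact permutation p = 0.0286). It was -4.16 without TME Ito replicate 2 and -3.80 without replicate 4. In a fit of only the TME samples without replicate 4 it missed the threshold (adjusted p = 0.0520). Of the 30 hepatocyte markers, 27 were higher in Ito cells and 0 in endothelial cells (median -3.58), and the counts were 28 and 27 without TME Ito replicates 2 and 4 in turn. The summed signal of the list was 35160 to 73226 in endothelial and 324809 to 858213 in Ito samples. The Ito libraries are labelled as a cell type that does not make these proteins in bulk, so the hepatocyte markers go against the label, and the part of hepatocyte RNA in any of the differences on the Ito side was not tested. The study reported high purity of all its cell fractions by immunochemistry, which looks at protein and was not examined here. It stained CD146 (*Mcam*) for endothelial, CD68 for Kupffer and smooth muscle actin (*Acta2*) for Ito cells. In the RNA, *Mcam* and *Cd68* were higher in the Ito libraries, but *Mcam* was not called without TME Ito replicate 4. *Acta2* was below all endothelial samples in every TME Ito replicate but replicate 2.

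The probe that measured *Alb*, and the 250 bases before the RefSeq start of the gene, are shown since this gene carries the hepatocyte side of the comparison. The probe lies at chr5:90901598-90901657 of mm9. The upstream window is chr5:90460620-90460869 (plus strand, GRCm38.p6), and its capitals mark GTTAAT, a core of sites of the liver factor HNF1, at bases 32 to 27 before the start.
Alb probe: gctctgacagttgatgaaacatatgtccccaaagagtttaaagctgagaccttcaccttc
Alb upstream: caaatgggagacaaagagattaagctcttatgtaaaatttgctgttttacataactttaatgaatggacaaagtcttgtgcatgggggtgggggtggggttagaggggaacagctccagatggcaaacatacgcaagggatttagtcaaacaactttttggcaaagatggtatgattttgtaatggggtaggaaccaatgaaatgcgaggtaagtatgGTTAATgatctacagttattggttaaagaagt
GTTAAT was present on either strand in 8 of 30 plasma protein genes with an entry (26.7%) and 2 of 22 cytochrome P450 genes (9.09%), against 6.52% of all genes. TATAAA, the sequence of the TATA box, was present in 12 of 22 cytochrome P450 genes (54.5%) and 5 of 30 plasma protein genes (16.7%), against 13% of all. These are matches anywhere in the windows, not bound sites.

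Of 37 plasma proteins of the liver, 34 were higher in Ito cells and 0 in endothelial cells, with a median of -3.80. *Apob*, the protein of very low density lipoprotein, was at 6.39, 8.30, 5.76 and 6.21 in endothelial and at 12.82, 9.63, 12.75 and 11.31 in Ito replicates. Replicate 2 was again the highest of the endothelial and the lowest of the Ito samples, and the difference was -4.96 ± 0.66 (adjusted p = 0.000381, limma). *Plg*, plasminogen, was 29.6-fold, the fibrinogen chain *Fgg* 27.2-fold and the plasmin inhibitor *Serpinf2* 26.7-fold higher. Of 18 acute phase reactants 10 were higher in Ito cells (6 with only TME samples) and 0 in endothelial ones, led by haptoglobin (*Hp*, 17.1-fold) and *Crp* (16.0-fold). Of 25 complement genes 10 were higher in Ito and 1 in endothelial cells, among them *C8a* (26.6-fold), *C8b* (20.4-fold), *C4bp* (18.7-fold) and *C9* (at least 2.47-fold). The anticoagulant zymogen *Proc* was 16.5-fold higher in Ito cells with an adjusted p of 4.81e-07. Its receptor *Procr*, which endothelial cells carry, was 3.55-fold higher in Ito cells as well, while thrombomodulin (*Thbd*, 3.28-fold) was higher in endothelial cells. *Thbd* was not called without TME Ito replicate 4 (adjusted p = 0.0675).

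Enzymes and transporters of the hepatocyte followed the same direction. Of 23 cytochromes P450, 17 were higher in Ito and 0 in endothelial cells (median -2.87). *Cyp2d26* was at 7.41, 7.63, 7.19 and 7.44 in endothelial and at 11.81, 11.84, 11.62 and 11.64 in Ito replicates. Its 4 Ito samples, replicate 2 included, lay close together, and the difference of -4.31 ± 0.13 had an adjusted p of 1.09e-09 in limma. *Cyp4f14* and *Cyp2d10* were 21.9-fold and 18.2-fold higher, *Cyp4f14* with 1 of 4 endothelial arrays above background. Members of the Cyp2d family share much of their sequence, so their signals may be mixed. Of 22 genes of bile acid and cholesterol handling, 8 were higher in Ito and 1 in endothelial cells. The bile salt export pump *Abcb11* was at 2.03 to 3.64 in endothelial and at 8.88, 5.38, 8.73 and 7.95 in Ito replicates. The bile acid ligase *Slc27a5* was 24.9-fold and the uptake carrier *Slco1b2* 18.6-fold higher in Ito cells, and *Cyp7a1*, the rate-limiting enzyme of bile acid synthesis, was at least 1.44-fold higher. Of 20 genes of the urea cycle and amino acid breakdown, 12 were higher in Ito (8 with only TME samples) and 0 in endothelial cells, among them *Uroc1* (at least 2.76-fold) and *Agxt* (18.2-fold, 2 of 4 endothelial arrays above background).

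**Figure D5:**
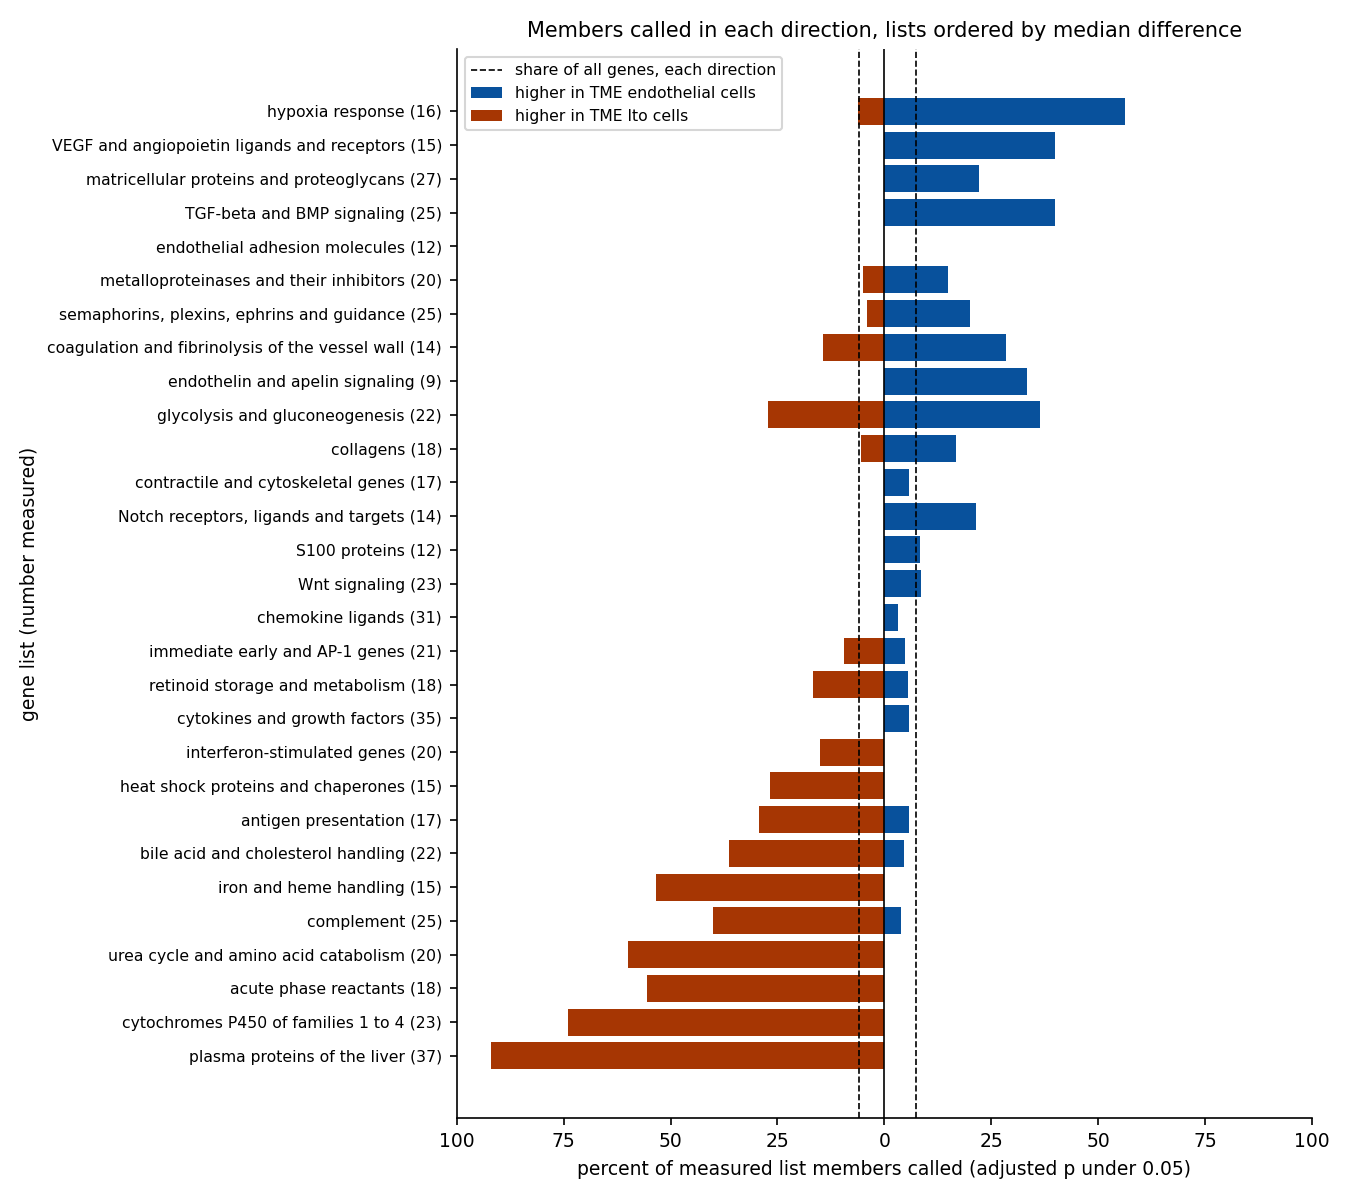
Percent of the measured members of each of 29 gene lists that were higher in TME endothelial (right) or TME Ito cells (left) at an adjusted p under 0.05; lists are ordered by median difference, numbers measured stand in parentheses, and dashed lines mark the shares of all genes, 7.44% and 5.96%. Plasma proteins, cytochromes P450 and urea cycle genes extend to the left, and hypoxia, TGF-beta and BMP and VEGF genes to the right.

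Globin genes gave 5 of the 12 largest differences on the Ito side, but with the widest spread. *Hba-a2*, an alpha globin, was at 10.97, 16.00, 9.68 and 10.45 in endothelial and at 17.17, 17.07, 17.16 and 16.51 in Ito replicates. Endothelial replicate 2 lay just below the lowest Ito sample and far above the other endothelial ones. The difference was -5.20 ± 1.01 (adjusted p = 0.00557, limma), and it was not called when only TME samples were fitted (adjusted p = 0.0794). *Hba-a1*, *Hbb-b1*, *Hbb-b2* and *Beta-s* differed by -5.23 to -5.76. Near-identical copies make up the globins, and likewise *Mug1* and *Mug2* (-4.93 and -4.88), whose signals the probes may not part. Of 11 erythroid markers 4 were higher in Ito cells (with only TME samples fitted in limma 0, or 5 at an unadjusted p under 0.05) and 0 in endothelial ones, and their mean level was 4.91, 6.62, 4.21 and 4.83 in endothelial and 7.98, 6.91, 7.80 and 6.71 in Ito replicates. Of 15 genes of iron and heme handling, 8 were higher in Ito and 0 in endothelial cells. They included the hepatic iron sensor *Tfr2* (-5.46 ± 0.94), transferrin (*Trf*, 13.1-fold) and hemopexin (*Hpx*, 12.1-fold). The part of erythroid cells or their RNA in these differences was not tested.

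Macrophage markers were higher in Ito cells in 6 of 22 cases and in endothelial cells in 0 (median -1.13), with 16 and 5 on the Ito side without TME Ito replicates 2 and 4 in turn and 2 with only TME samples fitted. *Cd14*, the co-receptor of bacterial lipopolysaccharide, was at 11.04, 12.07, 10.81 and 10.90 in endothelial and at 13.37, 13.40, 13.47 and 14.40 in Ito replicates. The groups did not overlap, and the difference was -2.45 ± 0.32 (adjusted p = 0.000351, limma). *Clec4f*, which marks Kupffer cells, was at 15.81, 11.03, 15.77 and 14.46 in Ito and at 11.99 to 13.15 in endothelial replicates. It was high in 3 Ito samples and lowest of all 8 in replicate 2, and it was called only without that sample (-2.61, adjusted p = 0.000969). The iron exporter *Slc40a1* (6.89-fold), the receptor *Csf1r* (2.74-fold) and *Cd68* (2.67-fold) were higher in Ito cells. Of 17 antigen presentation genes 5 were higher in Ito and 1 in endothelial cells, without TME Ito replicate 2 they were 8 and 1, and without replicate 4 they were 2 and 0. Whether macrophages account for them was not tested. Of 10 markers of B and plasma cells 3 were higher in Ito cells, and none of 16 neutrophil, 17 T and NK cell and 10 cholangiocyte markers was called in either direction (at an unadjusted p under 0.05 in limma, 1 in each direction for neutrophils and for T and NK cells, and 3 on the Ito side for cholangiocytes).

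Most inflammatory lists had few calls with all samples and more without TME Ito replicate 2. Leaving that sample out also raised the shares of all genes, from 7.44% and 5.96% to 14.9% and 10.6%. The rise is therefore not particular to these lists. Of 31 chemokine ligands, 1 (*Xcl1*, at 7.67 to 8.75 in endothelial and 4.07, 7.86, 2.08 and 2.10 in Ito replicates, overlapping) was higher in endothelial cells, and it was not called without TME Ito replicate 4 (adjusted p = 0.0798). Without TME Ito replicate 2, 3 chemokine ligands were higher in endothelial and 5 in Ito cells. Of 35 cytokines and growth factors, 2 were higher in endothelial cells, *Tgfa* (2.75-fold) and *Pdgfa* (2.31-fold), and without TME Ito replicate 2 there were 3 on that side and 8 on the Ito side. None of 12 endothelial adhesion molecules was called (5 were higher in endothelial cells at an unadjusted p under 0.05 in limma), with means of 16.08 and 16.45 for *Vcam1* and of 11.05 and 11.20 for *Icam1*. Without TME Ito replicate 2, 3 were higher in endothelial cells, and without replicate 4 there were 5, *Selp* among them (difference 2.36, adjusted p = 0.0222, limma). Of 20 interferon-stimulated genes 3 were higher in Ito cells (5 without TME Ito replicate 2), with *Mx2* at 14.14 to 14.56 in endothelial and 15.59 to 16.10 in Ito samples (-1.44 ± 0.17, adjusted p = 0.000164). Of 15 chaperones 4 were higher in Ito cells and 1 of them without replicate 4, and of 21 immediate early genes 1 was higher in endothelial and 2 in Ito cells. *Mki67*, the proliferation antigen, was the 1 of 18 cycling markers that was called (1.16 ± 0.28, higher in endothelial cells), against 6 without TME Ito replicate 2.

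The same contrast in the control cells, which carried the other dye, had 3249 probes (5.84%) higher in endothelial and 2345 (4.21%) higher in Ito cells (9.29% and 6.65% of genes), or 1165 and 842 with each pair of near-identical control endothelial channels counted as 1 sample. Of the 12 genes highest in TME endothelial cells, 10 were called in the control cells as well, and so were all 12 of the Ito side. The exceptions were *Apln* (2.58, adjusted p = 0.0811, limma) and *Emcn* (adjusted p = 0.119). *Edn1* differed by 3.46 in control cells (adjusted p = 0.0137) and *Alb* by -3.04 (adjusted p = 0.00503). The test of the difference itself, the interaction of cell type and TME, called 16 probes (0.0287%) with a positive and 61 (0.11%) with a negative value. Where the Ito cells are higher, a negative value is a wider gap in TME cells. None of the 24 leading genes was among the calls. With both channels of Ito array 4 left out, the interaction called 904 and 941 probes, *Apln* and *Emcn* (adjusted p = 0.0159) among the leading genes. *Id4*, *Mug1* and *Mug2* were called without TME Ito replicate 2, without replicates 2 and 4, and without Ito array 2. *Id4*, *Mgarp* and *Sox18* were called after both normexp settings. Of the 24, 10 were called with array weights and 9 without Ito arrays 2 and 4, and none in the other alternatives. The interaction was 2.52 for *Edn1* (adjusted p = 0.805) and 3.72 for *Apln* (adjusted p = 0.486). Of 23 alternatives, that of *Apln* passed the threshold in 3, without array 4 (adjusted p = 0.0416), without arrays 2 and 4 (0.0374) and with array weights (0.0103), and that of *Edn1* in the latter 2. Since TME went with Cy5 and control with Cy3, a change of the difference with TME and one with the dye cannot be told apart.

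Cytochromes P450 held 4 of the interaction calls among 23 genes, all negative. *Cyp2d26* had means of 7.42 in TME endothelial, 9.29 in control endothelial, 11.73 in TME Ito and 11.75 in control Ito cells, so the gap between cell types was -4.31 in TME and -2.46 in control cells (interaction -1.85, adjusted p = 0.00217, limma). The mean was thus lowest in TME endothelial cells, with control endothelial cells between them and both Ito groups. *Cyp4f14* (interaction -2.12, adjusted p = 0.00276) and *Cyp2d10* (-1.73, adjusted p = 0.00532) had the same order of means. With each pair of near-identical control endothelial channels counted as 1 sample, the interaction called 3 and 4 probes in all. The hypoxia list, with 9 endothelial calls in TME cells, had 2 in control cells and 1 on the Ito side (median 0.25 against 1.32), but none of its members had a called interaction.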

How the data were processed

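mRNA was measured in 32 samples on 16 two-colour Agilent arrays on 2 slides. The authors deposited, for each spot and channel, Feature Extraction 10.7.3.1 intensities, among them the processed signal, and a value table of normalized probe intensities on the linear scale, which followed the values used here (r of at least 0.9999). Log2 of each channel's processed signal was taken, control and outlier spots were left out, repeated spots were averaged per probe, and quantile normalization, which the study names, was run over the 32 channels. The deposited table was used as an alternative. Probe names and coordinates (mm9) come from the array files, and 22443 of 34821 names matched RefSeq. Each sample's group and dye were taken from its labels.

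TME endothelial and TME Ito samples were compared with limma 3.58.1 (lmFit, eBayes; R 4.3.3) in a fit of the 16 endothelial and Ito channels with group means, two-sided, with Benjamini-Hochberg adjustment over 55681 probes and calls at an adjusted p under 0.05. For a gene with several probes the one with the highest mean signal was used. Near-identical control endothelial channels remain separate in that fit. *Edn1*, *Apln* and *Alb* were also tested with exact permutation tests. Their p is fixed wherever the groups do not overlap, and near-identical channels count in it as separate samples. Named are those 3 genes, the 12 genes highest in either group among those called, without overlap and with every array of that group well above background, and up to 4 called members of each list. Further members named (such as *Pecam1*, *Kdr*, *Acta2* or *Vegfa*) were chosen after their values were seen. The samples compared and the 40 lists (793 of 799 genes measured) were chosen with earlier results of these data known. Some genes that meet the rules are not reported here.

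Between 43.8 and 55.4% of spots were well above background in the 8 TME channels, and the number of arrays limits the precision. On simulated data of 55645 probes the fit recovered 41.8% of probes changed by 1, 73.1% by 2 and 98.5% by 4 on the log2 scale, and 7.79% of its calls were false. The simulated channels varied independently and few probes were changed, in TME endothelial channels alone. Since some real channels were near-identical and others stood apart, these shares cannot be carried over to the real calls. Alternatives were normexp (offset 50) with quantile or with loess and Aquantile normalization, the 75th percentile, a filter on dim probes, all 8 groups or only the TME samples in the fit, array and replicate blocks, array weights, other thresholds, the methods' t-test, samples left out and, chosen after seeing the data, near-identical channels averaged. Slide could not be used as a block, since all samples compared lay on slide 1. Sequences are from RefSeq (GRCm38.p6) and the array files. Python 3.11.15, pandas 2.3.3, numpy 2.4.6, matplotlib 3.10.9 and version 1.17.8 of data.table were used. The miRNA, protein and patient data of the study were not analysed here.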

Additional observations from a re-analysis of the deposited data

Results flagged for a closer look

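Of 72 groups of 4 values tested for a sample far from the other 3, 17 had such a sample. Chance gives about 1 in 20 for independent groups, but these groups share the same libraries, so that rate is no yardstick here. TME endothelial replicate 2 stood apart in most of the 17. Its level was above the other 3 for *Edn1* (13.29), *Apln* (11.67), *Alb* (13.91), *Ctgf* (16.36), *Sdpr* (13.40) and *Mug1* (8.10) and for the mean of the cycling markers (8.43). It was below them for *Sema3g* (5.75), *Id4* (9.27) and *Shisa9* (8.05). TME endothelial replicate 3 was low for *Plg* (6.4).

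Among TME Ito samples, replicate 2 was low for *Mug1* (10.51) and *Mug2* (9.35) and high for *Sema3g* (3.91, not well above background). Replicate 4 was high for *Sox18* (3.49, not well above background) and low for *Hba-a2* (16.51) and for the mean of the T and NK cell markers (6.22).

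The difference between endothelial and Ito cells was another one in TME than in control cells, by the interaction term of limma at an adjusted p under 0.05, for 16 probes with a positive and 61 with a negative value.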

How the results depend on the processing

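Among the called genes named by the rules, no difference changed sign under any alternative. The further members named were not followed in this way, and the sign of *Acta2* depended on which TME Ito replicates were kept. The larger count of probes passed to the Ito side with the 75th percentile, averaging, the 4-fold threshold and the t-test. The probes higher in TME endothelial and in TME Ito cells (3016 and 2333) numbered 1930 to 5285 and 1569 to 4178 with a replicate left out, the lowest without TME endothelial replicate 4 and the highest without TME Ito replicate 2. They were 5718 and 4172 without TME Ito replicates 2 and 4, 7840 and 5808 with array weights, 1212 and 857 with only the TME samples in the fit (1485 and 878 without TME Ito replicate 4), 1742 and 1772 after scaling to the 75th percentile, which moved the median of all probes to -0.30, and 43 and 80 with all near-identical channels averaged. At an adjusted p under 0.001 and at least 4-fold they were 133 and 239, and with at least 2-fold at 0.05 they were 1446 and 1206. The methods' t-test gave 148 and 217 at an unadjusted p under 0.001 and at least 4-fold, 3 and 3 after adjustment, and 989 and 1300 at an adjusted p under 0.05. With near-identical channels averaged, the differences of *Edn1* (6.01, adjusted p = 0.164), *Apln* (6.43, adjusted p = 0.143) and *Alb* (-2.92, adjusted p = 0.311) were not called, nor was *Alb* in the fit of TME samples without TME Ito replicate 4 (-3.80, adjusted p = 0.0520). With a replicate left out they lay at 5.43 to 6.45, 5.74 to 6.71 and -4.16 to -3.38, all called. The cause of these changes was not tested.

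In control cells the counts (3249 and 2345) were 8041 and 5721 with array weights, 1165 and 842 with the control endothelial pairs averaged, 8 and 4 with all near-identical channels averaged, and 2087 to 3918 and 1561 to 2815 with a replicate left out (lowest without control endothelial replicates 2 and 3, highest without control Ito replicate 4). Without control Ito replicate 3, 2094 were higher in endothelial cells. The interaction (16 positive, 61 negative) gave 27 positive after normexp and quantile normalization, and 51 and 126 after loess, 9 and 40 with the 75th percentile, 1402 and 1779 with array weights, 9 to 53 and 31 to 159 with a replicate left out, 68 and 189 without TME Ito replicates 2 and 4, 3 and 4 with control endothelial pairs averaged, and 0 and 0 in limma with all near-identical channels averaged (508 and 594 at an unadjusted p under 0.05). Both channels of Ito array 4 left out gave 904 and 941, of array 2 31 and 107, and of both arrays 1967 and 2617.

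Replicate numbers did not pair the samples (deviations of same-numbered TME samples correlated at r = 0.14, 0.09, -0.05 and 0.07). With the replicate block 2672 and 2150 probes were called in TME cells, and 9 and 35 had an interaction. Over all alternatives, calls of single genes named by the rules were kept in 2337 cases and lost in 423. Counts of list members stayed within 1.5 times in 1543 cases and moved further in 377. With 4 arrays a group, differences near 1 on the log2 scale were recovered in fewer simulated cases than larger ones, and probes near background have only bounds.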
